A study of Homo sapiens with 4 samples.

Results

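The subunits of oxidative phosphorylation were followed through a knockdown of TTF-1 in 2 small cell lung cancer lines. Members were all genes whose platform symbol names a nuclear-encoded subunit of complexes I to V (the NDUFA, NDUFB, NDUFC, NDUFS and NDUFV genes, SDHA to SDHD, the UQCR genes, CYC1, COX4I to COX8A, and the ATP5 genes), without assembly factors and pseudogenes. They came to 79 genes read by 153 probe sets, of 19775 genes with a value: 33 of complex I, 3 of complex II, 7 of complex III, 18 of complex IV and 18 of complex V. NDUFS5, NDUFS8, NDUFC2, SDHB, UQCRFS1 and UQCRH are not analysed here, because no probe set was paired with that symbol alone. Of the 79 members, 77 passed the limit on dim probe sets, an intensity of 37.0. The exceptions were COX7A1 and COX7B2.

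The 4 groups were Lu139 cells given siTTF-1, Lu139 cells given the control siNTC, NCI-H209 cells given siTTF-1, and NCI-H209 cells given siNTC, with 1 Affymetrix array each. Both lines are established human small cell lung cancer lines, and the siRNA was delivered by electroporation in every group. TTF-1 is the protein of NKX2-1, a homeobox transcription factor of lung and thyroid. With 1 array per group a difference within a line has no error, and the lines are the sole replication of the siRNA effect. In bulk RNA, fewer cells of a type and less RNA per cell cannot be told apart.

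Oxidative phosphorylation makes ATP in the inner mitochondrial membrane. Complexes I and II pass electrons from NADH and succinate to ubiquinone, complex III hands them to cytochrome c, and complex IV gives them to oxygen. Complexes I, III and IV pump protons, and complex V, the ATP synthase, lets them flow back through its rotor. All complexes but II also hold subunits encoded in mitochondrial DNA, so their assembly draws on both genomes.

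The array labels were checked first. NKX2-1 had an intensity of 461 with siTTF-1 and 780 with siNTC in Lu139, and 243 with siTTF-1 and 596 with siNTC in NCI-H209. Its log2 fold changes were -0.74 and -1.23, and its adjusted p in limma over all genes was 0.0844, so the lower level on both siTTF-1 arrays did not pass 0.05. Neuroendocrine markers were above the limit in both lines for 7 of 7 genes measured. Their summed intensity was 14990 with siTTF-1 and 14050 with siNTC in Lu139, and 21170 with siTTF-1 and 25880 with siNTC in NCI-H209. By gene, 4 were higher and 3 lower in Lu139 (median log2 fold change 0.0038), and 1 was higher and 6 lower in NCI-H209 (median -0.31). GRP had log2 fold changes of 0.40 in Lu139 and -0.51 in NCI-H209. Fibroblast markers (2 of 5 above the limit) summed to 494.8 with siTTF-1 and 445.8 with siNTC in Lu139, and to 421.6 and 382.3 in NCI-H209. Blood markers (3 of 4) summed to 249.6 and 236.6 in Lu139, and to 273.9 and 245.4 in NCI-H209. Endothelial markers (2 of 3) summed to 214.8 and 168.6 in Lu139, and to 228 and 209.5 in NCI-H209. Each of these sums was low and was higher with siTTF-1. Above the limit were COL1A1, DCN, CD14, CD3E, HBB, PECAM1 and VWF. COL1A1 read 259 to 362 on the 4 arrays. DCN had log2 fold changes of 0.54 in Lu139 and 0.05 in NCI-H209, and PECAM1 0.38 and 0.07. HBB alone of these was lower, at -0.07 in Lu139. COL1A2, COL3A1, LUM, PTPRC (9.78 to 11.3) and CDH5 (9.63 to 11.0) were under the limit on all 4 arrays. The part of these markers in the results was not tested. The ratio of 3 prime to 5 prime signal for GAPDH was between 0.912 and 0.937 on the 4 arrays, and that for ACTB between 1.03 and 1.09.

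Promoters of the members were compared with all promoters in RefSeq (GRCh38.p14), over 250 bases before and 50 after the start of each gene. Words of factors known to act at nuclear genes for respiratory subunits were searched on both strands: CGCATGCG for NRF1, CGGAAGT for ETS factors such as GABPA, and AAGATGG for YY1, none of which holds another of them. A promoter was at hand for 67 of the 79 members. The NRF1 word stood in 10 of the 67 (14.9%), against 2.19% of all 27305 promoters. The ETS word stood in 11 (16.4%), against 7.23%, and the YY1 word in 15 (22.4%), against 6.06%. The word CAAGTG of NKX2-1 stood in 6 (8.96%), against 11.5%. These are letter matches, not sites of binding. The 3 promoters below are shown because each holds a pair of these words, on genes of 3 complexes: SDHD of complex II (chr11:112086623-112086922, plus strand), COX6A1 of complex IV (chr12:120437863-120438162, plus strand) and ATP5ME of complex V (chr4:674227-674526, minus strand). Capitals mark the NRF1 and ETS words in SDHD and COX6A1, where the ETS word lies on the opposite strand as ACTTCCG, and the NRF1 and YY1 words in ATP5ME.
SDHD: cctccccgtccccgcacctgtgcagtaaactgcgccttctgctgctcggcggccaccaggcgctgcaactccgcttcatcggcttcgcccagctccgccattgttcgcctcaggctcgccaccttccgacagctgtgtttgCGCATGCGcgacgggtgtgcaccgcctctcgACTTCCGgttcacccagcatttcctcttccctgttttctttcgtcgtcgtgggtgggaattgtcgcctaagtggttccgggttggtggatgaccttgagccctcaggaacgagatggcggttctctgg
COX6A1: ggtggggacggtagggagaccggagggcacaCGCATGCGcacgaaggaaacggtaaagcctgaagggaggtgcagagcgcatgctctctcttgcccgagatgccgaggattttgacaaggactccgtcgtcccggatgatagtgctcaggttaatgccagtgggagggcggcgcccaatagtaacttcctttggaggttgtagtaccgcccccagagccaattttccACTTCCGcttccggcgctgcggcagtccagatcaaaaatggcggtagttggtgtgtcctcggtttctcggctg
ATP5ME: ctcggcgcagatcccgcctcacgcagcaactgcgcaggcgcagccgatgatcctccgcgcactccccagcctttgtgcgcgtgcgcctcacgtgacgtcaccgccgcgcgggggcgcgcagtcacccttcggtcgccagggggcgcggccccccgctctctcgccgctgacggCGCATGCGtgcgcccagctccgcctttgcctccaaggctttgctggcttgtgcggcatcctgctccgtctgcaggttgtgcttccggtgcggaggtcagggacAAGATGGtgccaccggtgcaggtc

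The first comparison asked how subunit transcripts stood after TTF-1 knockdown in each line. Changes were small in every complex. The median log2 fold change of siTTF-1 over siNTC was 0.06 in Lu139 and 0.03 in NCI-H209 for the members, against 0.03 and 0.01 for all genes above the limit. None of the 77 members was called in limma in either direction (adjusted p under 0.05), where 0% of 14547 genes were called higher and 0% lower. At an unadjusted p under 0.05, 5 members were higher (NDUFB5, SDHC, UQCRQ, ATP5F1B and ATP5MC1), where 7.23% of all genes were. UQCRB alone was lower, where 9.25% of all genes were. Member adjusted p values in limma lay between 0.195 and 0.987.

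The members leaned to the higher side, by little. In Lu139, 61 of 77 (79.2%) had a log2 fold change above 0, against 57.7% of all genes, and in NCI-H209 49 of 77 (63.6%), against 51.1%. Both lines had the higher value with siTTF-1 for 43 members (55.8%), against 37.7% of all genes. Both had the lower value for 10 (13%), against 27.5%, and the direction differed between the lines for 24. Members are bright genes, and among genes above the 80th percentile the shares were 34.9% higher and 33.5% lower in both lines. A centring of each array on its median puts 55 of 76 members on the higher side in both lines, against 47.1% of all genes, and quantile normalization 39, against 42.1%.

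The members spread less than other genes did. The SD of their log2 fold changes was 0.093 in Lu139 and 0.113 in NCI-H209, against 0.186 and 0.272 over all genes and 0.173 and 0.286 over the bright genes. Past 1.2-fold, 2 members were higher in Lu139, CYC1 and COX6B2, where 6.34% of all genes were, and 0 were lower, where 6.84% were. Among the bright genes these shares were 3.96% and 6.36%. In NCI-H209, NDUFB5 was higher past 1.2-fold, where 9.35% of all genes were, and UQCRB lower, where 14.4% were. Among the bright genes these shares were 11.3% and 18.1%. No member passed 1.2-fold the same way in both lines, where 1.86% of all genes did so upward and 3.80% downward. Across members, the changes in the 2 lines had a Pearson correlation of 0.42 and a Spearman correlation of 0.42 (n = 77 genes), against 0.52 and 0.47 over all 13306 genes. Over the 5536 bright genes the correlations were 0.594 and 0.545. Genes on the same arrays are not independent replicates.

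**Figure D1:**
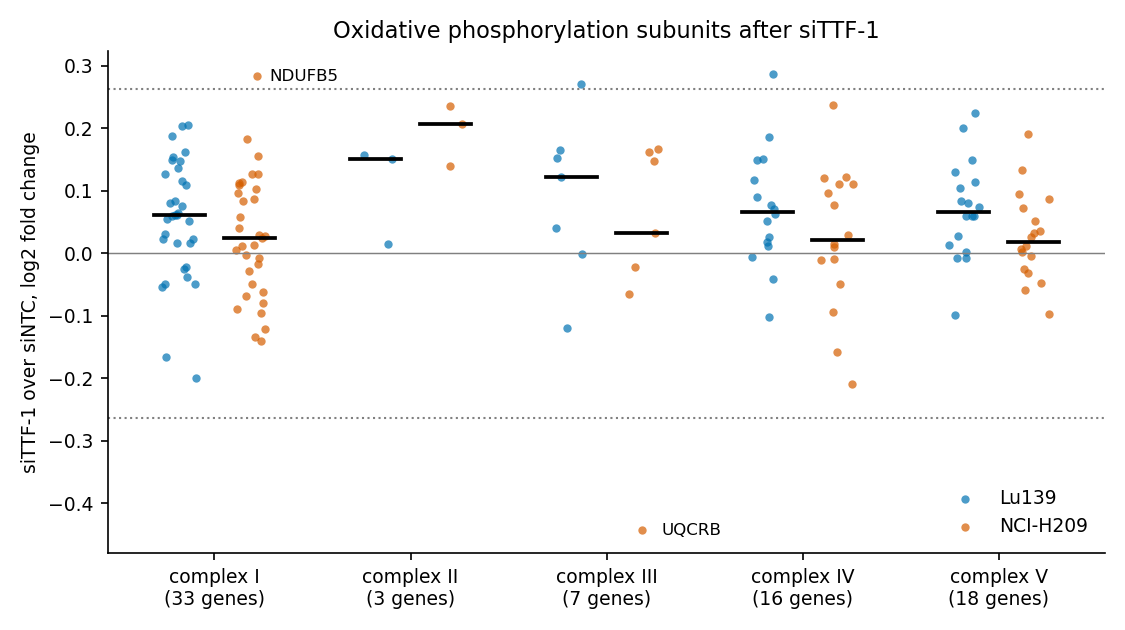
Log2 fold change of siTTF-1 over siNTC for each member (1 point per gene, 1 array per siRNA), by complex and line, with black bars at the medians and dotted lines at 1.2-fold. Most points lie within 1.2-fold, 73 of 77 members in both lines, and UQCRB stands lowest in NCI-H209 at -0.44.

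**Figure D2:**
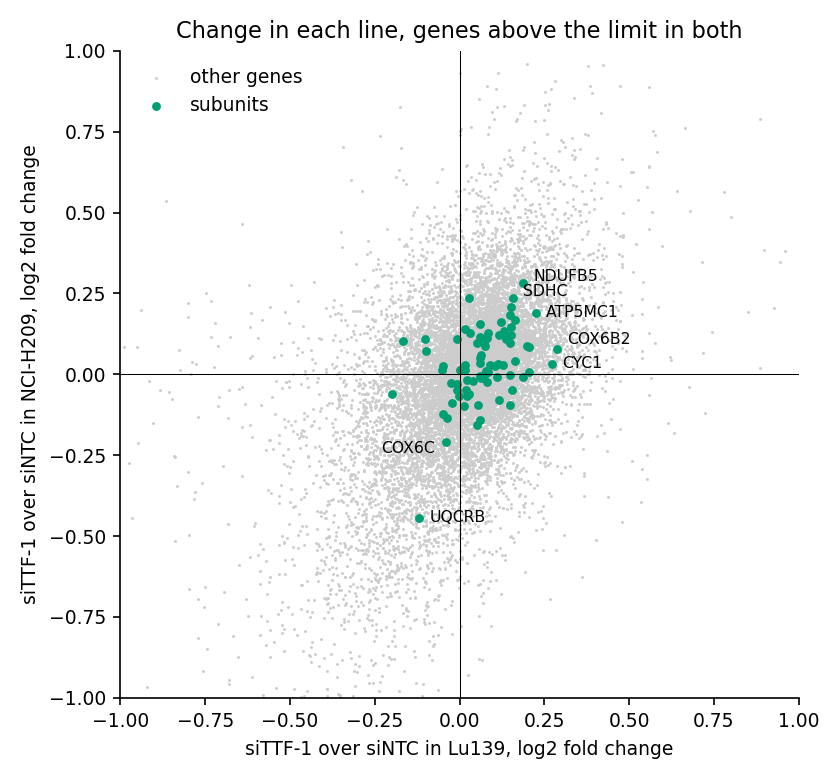
Log2 fold change of siTTF-1 over siNTC in Lu139 (x axis) and in NCI-H209 (y axis), for members (green) and the other genes above the limit in both lines (grey). Of 13306 such genes, 104 at or beyond a log2 fold change of 1 lie outside the axes, and the members stand near the origin, with 43 of 77 higher with siTTF-1 in both lines and 10 lower.

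Complex I, which oxidises NADH through a matrix arm and pumps protons through a membrane arm, had median log2 fold changes of 0.06 in Lu139 and 0.02 in NCI-H209. Of its 33 members, 17 were higher with siTTF-1 in both lines and 5 lower. NDUFB5, an accessory subunit of the distal membrane arm, had intensities of 2562 with siTTF-1 and 2247 with siNTC in Lu139, and 4179 with siTTF-1 and 3431 with siNTC in NCI-H209. Both siTTF-1 arrays were thus above their siNTC array, by log2 0.19 and 0.28 (mean 0.24 ± 0.067, SD, n = 2 lines), with an adjusted p of 0.215 in limma. It rests on 1 probe set. NDUFA9, at the junction of the arms, followed with 0.15 and 0.18, and NDUFA12, an accessory subunit of the matrix arm, with 0.20 and 0.08.

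The lowest mean change in complex I, by brightest probe sets, was that of NDUFB7, a subunit of the distal membrane arm. It had 944 with siTTF-1 and 1087 with siNTC in Lu139, and 1297 with siTTF-1 and 1354 with siNTC in NCI-H209, log2 fold changes of -0.20 and -0.06. NDUFA6 and NDUFV2 were lower by less, at -0.04 and -0.05 in Lu139 and -0.13 and -0.12 in NCI-H209. Dimmer probe sets above the limit did not follow in both lines. That of NDUFB7 had 0.14 in Lu139 and -0.02 in NCI-H209, and that of NDUFA6 -0.07 and 0.14. The core subunits of electron transfer lay on either side of 0. NDUFV1, which binds NADH and flavin, had 0.08 in Lu139 and 0.13 in NCI-H209. NDUFS1, the large iron-sulfur subunit, had 0.08 and 0.09, and NDUFS3 had 0.14 and 0.11. NDUFS7, which holds the last iron-sulfur cluster before ubiquinone, had 0.11 in Lu139 and -0.01 in NCI-H209.

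By module, the NADH-oxidising matrix part (10 genes) had medians of 0.06 in Lu139 and 0.09 in NCI-H209, with 6 higher and 2 lower in both lines. The quinone-reducing part (3 genes) had 0.11 and -0.01, with 1 higher in both. The proximal membrane arm (8 genes) had 0.06 and 0.04, with 6 higher and 0 lower in both lines, and the distal membrane arm (11 genes) 0.06 and -0.0031, with 3 higher and 3 lower. These differences between parts of the complex were not tested.

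Complex II, succinate dehydrogenase, links the citric acid cycle to the respiratory chain and is made from nuclear genes alone. All 3 of its measured members had the higher value with siTTF-1 in both lines. Their medians, 0.15 in Lu139 and 0.21 in NCI-H209, were the highest of any complex in each line. With the mean of all probe sets of a gene they were 0.05 in Lu139 and 0.14 in NCI-H209, under those of complex III (0.12 and 0.15). SDHC, a membrane anchor that binds heme, had 1564 with siTTF-1 and 1400 with siNTC in Lu139, and 3002 with siTTF-1 and 2546 with siNTC in NCI-H209 (adjusted p in limma 0.294). SDHD, the other anchor and the gene of the first promoter shown, had 2333 with siTTF-1 and 2100 with siNTC in Lu139, and 3335 with siTTF-1 and 2888 with siNTC in NCI-H209 (adjusted p in limma 0.304). The anchors were thus higher on both siTTF-1 arrays, by log2 0.16 and 0.24 for SDHC and 0.15 and 0.21 for SDHD. SDHA, the flavin-bearing catalytic subunit, was close to level in Lu139, with 1480 for siTTF-1 and 1465 for siNTC, and higher in NCI-H209, with 3539 for siTTF-1 and 3209 for siNTC. SDHA and SDHC have related pseudogene copies, and the probe sets that read them here are of the type (_x_at) that can pick up related sequences. Of the 6 SDHC probe sets above the limit, 5 were higher in both lines and 1 lower, at -0.11 in Lu139 and -0.37 in NCI-H209.

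Complex III, the cytochrome bc1 complex, held both the member with the lowest mean change, UQCRB, and several of the higher ones. UQCRB, an accessory subunit near the ubiquinone-binding region, had 5821 with siTTF-1 and 6325 with siNTC in Lu139, and 7361 with siTTF-1 and 10014 with siNTC in NCI-H209. Both siTTF-1 arrays were below their control, by far more in NCI-H209. The log2 fold changes of -0.12 and -0.44 have a mean of -0.28 ± 0.23 (SD, n = 2 lines), a 95% interval of -0.48 to -0.09 and an adjusted p of 0.195 in limma. All 4 probe sets of UQCRB, the sole such member among those with at least 2 probe sets above the limit, were lower in both lines, between -0.54 and -0.10 in Lu139 and between -1.23 and -0.44 in NCI-H209. The probe set with the largest difference was dim. It read 58.4 with siTTF-1 and 93.4 with siNTC in Lu139, and 35.8 with siTTF-1 and 109 with siNTC in NCI-H209, with an adjusted p of 0.086 in limma run over probe sets.

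The rest of complex III lay on the other side or near 0. CYC1, the cytochrome c1 that carries electrons to cytochrome c, had 4029 with siTTF-1 and 3335 with siNTC in Lu139, and 7642 with siTTF-1 and 7474 with siNTC in NCI-H209. It was past 1.2-fold in Lu139 (log2 0.27) and near level in NCI-H209 (0.03), with an adjusted p of 0.361 in limma. The core proteins had nearly the same value in both lines, UQCRC1 with 0.15 and 0.15, and UQCRC2 with 0.16 and 0.17. UQCRQ, a small accessory subunit, had 6327 with siTTF-1 and 5812 with siNTC in Lu139, and 7005 with siTTF-1 and 6258 with siNTC in NCI-H209 (adjusted p in limma 0.289). UQCR10 and UQCR11 lay between -0.07 and 0.04 in both lines by their brightest probe sets. A second, dimmer probe set of UQCR11 read 338 with siTTF-1 and 270 with siNTC in Lu139, and 476 with siTTF-1 and 367 with siNTC in NCI-H209, past 1.2-fold in both (log2 0.30 and 0.36, adjusted p 0.214 in limma run over probe sets).

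**Figure D3:**
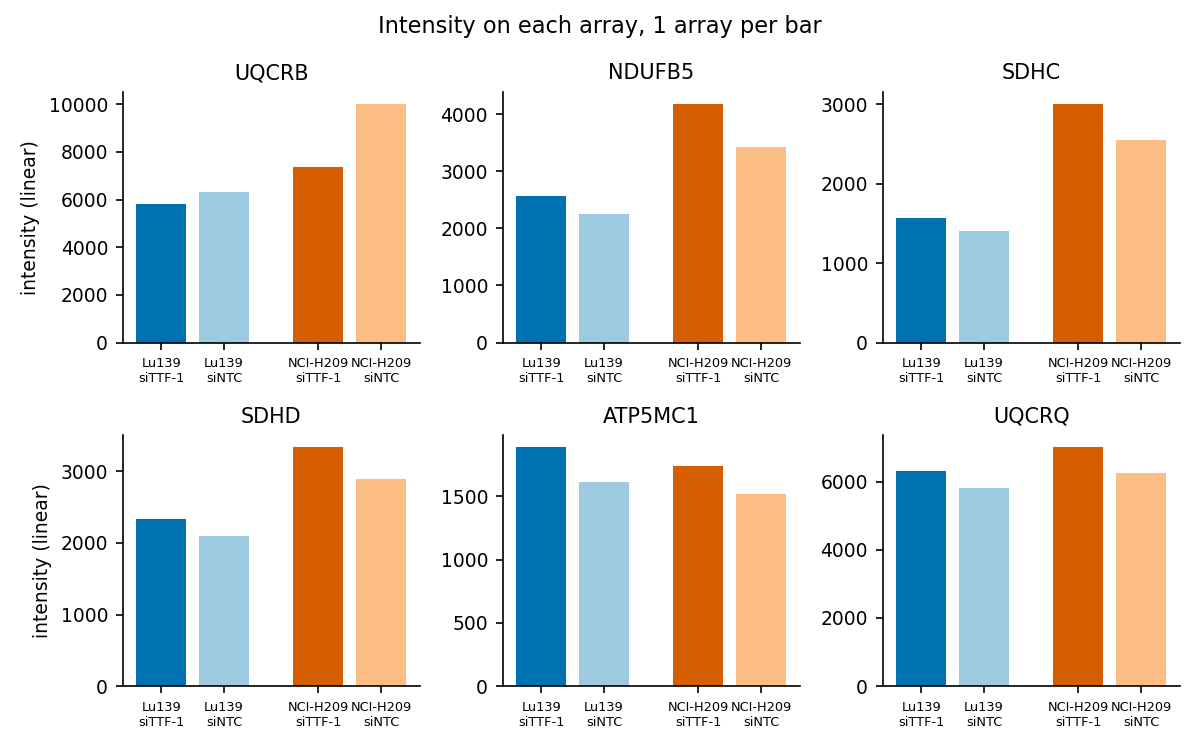
Deposited intensity (linear axis from 0) of selected members on the 4 arrays, 1 bar per array, each line's siTTF-1 array left of its siNTC array. UQCRB is lower with siTTF-1 in both lines, and SDHC, SDHD, NDUFB5, UQCRQ and ATP5MC1 higher in both.

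Complex IV, cytochrome c oxidase, had medians of 0.07 in Lu139 and 0.02 in NCI-H209. Of its 16 members above the limit, 8 were higher in both lines and 1, COX6C, lower. COX6C, a small membrane subunit, had -0.04 in Lu139 and -0.21 in NCI-H209. COX7A2L, a COX7A-related protein that takes part in joining complexes III and IV into supercomplexes, had 2055 with siTTF-1 and 2018 with siNTC in Lu139, and 4817 with siTTF-1 and 4085 with siNTC in NCI-H209. It was thus near level in Lu139 (0.03) and higher in NCI-H209 (0.24), with an adjusted p of 0.451 in limma. COX7C, which has pseudogene copies and is read by an _x_at probe set, had 0.05 and -0.16, and COXFA4 (formerly NDUFA4) 0.02 and -0.05.

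By their brightest probe sets, the next subunits around the catalytic core lay between -0.01 and 0.12. COX4I1, the regulatory subunit present in most tissues, had 0.09 in Lu139 and 0.03 in NCI-H209. COX5A and COX5B had 0.06 and -0.01 in Lu139, and -0.01 and 0.11 in NCI-H209. Other probe sets above the limit reached 0.26 for COX4I1 and 0.19 for COX5A in Lu139. In NCI-H209 they reached 0.25 for COX5A and 0.17 for COX5B, and the lowest was -0.06, for COX4I1. COX8A, a small membrane subunit, had 7560 with siTTF-1 and 6968 with siNTC in Lu139, and 10715 with siTTF-1 and 9852 with siNTC in NCI-H209, a log2 fold change of 0.12 in each.

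COX6A1, the gene of the second promoter shown, had 8629 with siTTF-1 and 8216 with siNTC in Lu139, and 10797 with siTTF-1 and 10093 with siNTC in NCI-H209, log2 fold changes of 0.07 and 0.10. COX6B1 had 0.08 and 0.01, COX7A2 0.01 and 0.01, and COX7B 0.15 and -0.09.

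The paralogs that other tissues use were dim. COX4I2 (lung and hypoxia), COX6A2 (heart and skeletal muscle), COX6B2 (testis) and COXFA4L2 (hypoxia) had intensities between 53.9 and 97.6 on all 4 arrays, just above the limit of 37.0. COX7A1 (heart and muscle) had between 21.4 and 36.8 and COX7B2 (testis) between 10.2 and 22.7, both under it. COX6B2 had 69.9 with siTTF-1 and 53.9 with siNTC in Lu139, past 1.2-fold, and 64.9 with siTTF-1 and 60.6 with siNTC in NCI-H209. COX6A2 had 0.15 in Lu139 and 0.12 in NCI-H209, and COX4I2 0.19 and -0.01. These 4 genes lie near the limit, and their differences within a line have no error.

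Complex V, the ATP synthase, had medians of 0.07 in Lu139 and 0.02 in NCI-H209. Of its 18 members, 11 were higher with siTTF-1 in both lines and 2 lower. The c-ring subunit, whose ring turns with the proton flow, is made from 3 genes that encode the same mature protein. ATP5MC1 had 1886 with siTTF-1 and 1611 with siNTC in Lu139, and 1736 with siTTF-1 and 1519 with siNTC in NCI-H209, log2 fold changes of 0.22 and 0.19 (adjusted p in limma 0.289). ATP5MC3 had 0.20 and 0.09, and its 3 probe sets were all higher in both lines. ATP5MC2 went the other way in Lu139, at -0.10, and had 0.07 in NCI-H209. The c-ring genes therefore did not share a direction in Lu139.

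In the catalytic head, ATP5F1B, the beta subunit that makes ATP, had 9442 with siTTF-1 and 8510 with siNTC in Lu139, and 9639 with siTTF-1 and 9021 with siNTC in NCI-H209. It was higher on both siTTF-1 arrays, by 0.15 and 0.10 (adjusted p in limma 0.297). Its partner ATP5F1A, the alpha subunit, had -0.01 and -0.05, and ATP5F1C, of the central stalk, 0.07 and 0.0023. ATP5PD of the peripheral stalk and ATP5MJ of the membrane part also had means at or under 0, with 0.01 and -0.01 in Lu139 and -0.10 and -0.03 in NCI-H209. ATP5MF had 0.13 in each line, but the probe set paired with it alone is dim, at 36.1 to 48.7 on the 4 arrays.

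A gene value rests on 1 probe set, and other probe sets of the same gene did not always follow it. Of 131 member probe sets above the limit in both lines, 70 were higher with siTTF-1 in both and 22 lower in both. Of 35 members with at least 2 such probe sets, all were higher in both lines for 6 (NDUFA11, NDUFV3, UQCRC2, ATP5F1C, ATP5MC3 and ATP5PO) and all lower for 1, UQCRB. For the other 28 the probe sets did not all share a direction in both lines. Among the members read by an _x_at probe set, of which there were 7, related copies may add signal.

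The second comparison set the level of the members in Lu139 against that in NCI-H209. Values equal on both arrays of a line, 2206 probe sets in Lu139 and 2416 in NCI-H209, against 0 between lines, leave it possible that the lines were normalized separately, so each level was read under 3 scalings. The deposited scale put the median of all genes at -0.28 (log2 Lu139 over NCI-H209), and quantile normalization over the 4 arrays at 0.04. On the deposited scale limma called 6 of 77 members higher in Lu139 (adjusted p under 0.05), where 18.7% of all genes were called higher. It called 52 lower, where 51.7% of all genes were. After quantile normalization it called 24 members higher, against 36.7% of all genes, and 32 lower, against 32.8%. These p-values compare 2 arrays of each line and carry no spread between cultures. The median intensity over all probe sets was 49.6 and 48.4 in Lu139 (siTTF-1 and siNTC), and 57.75 and 56.6 in NCI-H209.

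Complexes differed in how they stood. The median difference on the deposited scale was -0.65 for complex I, -0.89 for complex II, -0.42 for complex III, -0.43 for complex IV and -0.15 for complex V. After quantile normalization the medians were -0.22, -0.42, 0.02, -0.15 and 0.21, so complexes III and V changed sign. The complex I median lay below that of complex V on both scales, with a difference of -0.50 (log2) as deposited and -0.43 after quantile normalization. This gap was not tested.

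**Figure D4:**
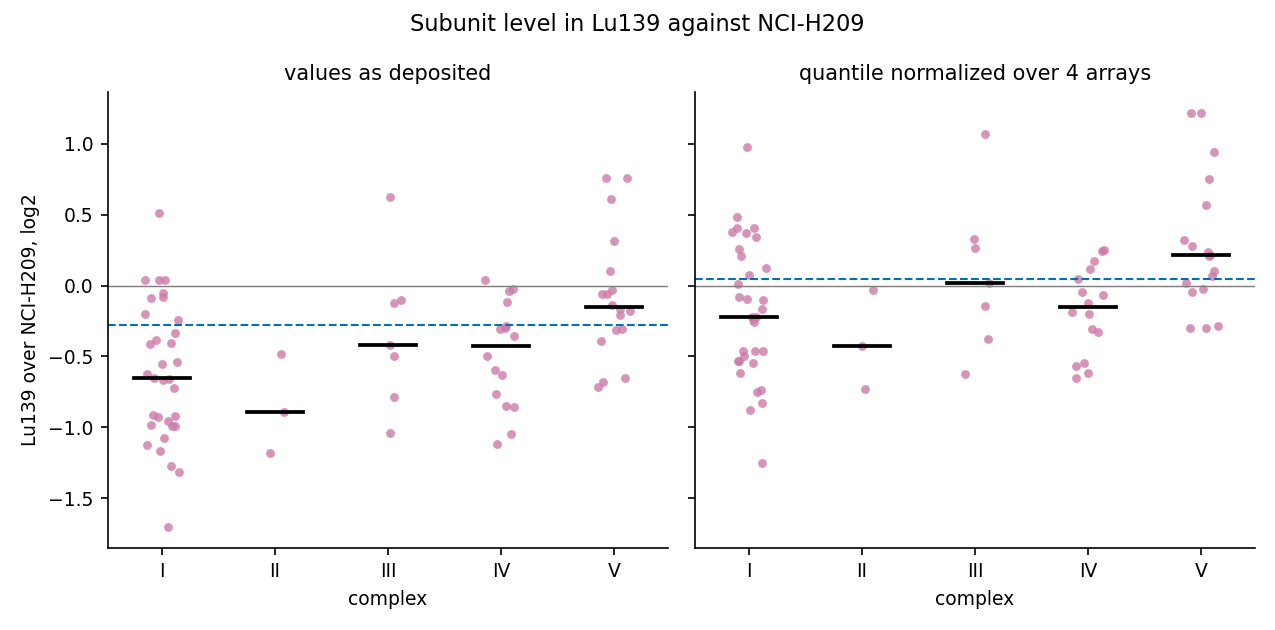
Log2 difference of Lu139 over NCI-H209 for each member tested (1 point per gene, 2 arrays per line), by complex, on the deposited scale (left) and after quantile normalization (right), with black bars at the medians and dashed blue lines at the median of all genes tested, -0.28 and 0.04. The medians of complexes I, II, III and IV lie below that line in both panels, and the complex V median above it.

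Counts of members called the same way under all 3 scalings (deposited, quantile, and each array centred on its median), a summary chosen after the data were seen, were 6 higher in Lu139, against 18.8% of all genes, and 28 lower, against 28.1%. The scalings put the median of all genes at -0.28, 0.04 and 0.20, so 1 scaling sets each count. The 6 are the members called higher on the deposited scale, and the 28 those called lower after centring. Agreement over the scalings therefore adds no support beyond that 1 scaling. Of the 28, 16 were among the 33 genes of complex I, 2 of 3 in complex II, 2 of 7 in complex III, 5 of 16 in complex IV and 3 of 18 in complex V. The share lower in complex I was 48.5%. Of the 6 higher in Lu139, 4 were in complex V: ATP5F1D, ATP5F1E, ATP5IF1 and ATP5ME.

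NDUFA1, a small membrane subunit that complex I needs for assembly, had the largest difference of the members. It had 1718 and 1572 in Lu139 (siTTF-1 and siNTC), and 5449 and 5343 in NCI-H209, so every Lu139 array lay below every NCI-H209 array. The log2 difference was -1.70 (SE 0.07, n = 2 arrays per line), with an adjusted p of 2.04e-06 in limma, and it was -1.25 after quantile normalization. NDUFA11, another membrane subunit, had 2788 and 2756 in Lu139, and 6949 and 6884 in NCI-H209, a log2 difference of -1.31. NDUFB10, of the distal membrane arm, was the sole complex I member called higher in Lu139 on the deposited scale, where 9 were after quantile normalization. It had 3511 and 3044 in Lu139 and 2291 and 2282 in NCI-H209. Its log2 difference was 0.51 (adjusted p 0.00111 in limma).

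In complex II, SDHA had 1480 and 1465 in Lu139 and 3539 and 3209 in NCI-H209, and SDHC 1564 and 1400 in Lu139 and 3002 and 2546 in NCI-H209. Their log2 differences were -1.18 and -0.89, and both were called lower under all 3 scalings, while SDHD (-0.48) was not. In complex III, CYC1 had -1.04 and UQCR10 -0.79. UQCRC1, a core protein, stood against them, with 2664 and 2397 in Lu139 and 1721 and 1552 in NCI-H209, a log2 difference of 0.62. In complex IV, COX7A2L had -1.12 and COX5B -1.05, and 0 members were called higher on the deposited scale.

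Complex V held the highest differences. ATP5F1D, the delta subunit of the central stalk, had 1735 and 1602 in Lu139 and 990 and 968 in NCI-H209, a log2 difference of 0.76 (SE 0.09, n = 2 arrays per line) with an adjusted p of 2.18e-04 in limma. ATP5IF1, the inhibitor that blocks ATP hydrolysis when the proton gradient falls, had 1393 and 1336 in Lu139 and 811 and 791 in NCI-H209, also 0.76. ATP5F1E, of the same stalk, had 0.61, and ATP5ME, the gene of the third promoter shown, 0.32. At the other end, ATP5MJ had -0.71 and ATP5MC3 -0.68. Among members with at least 2 probe sets above the limit, all probe sets were lower in Lu139 for 24 and all higher for 4, and the direction differed for 7.

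Other mitochondrial genes gave the setting for the siTTF-1 changes. Of 7 subunits encoded in mitochondrial DNA and measured here, 6 were higher with siTTF-1 in both lines and 1, ND6, lower, with medians of 0.25 in Lu139 and 0.12 in NCI-H209. ND2, of complex I, had 10878 with siTTF-1 and 9061 with siNTC in Lu139, and 9961 with siTTF-1 and 8253 with siNTC in NCI-H209, past 1.2-fold in both lines (adjusted p in limma 0.111). ND6 had 203 with siTTF-1 and 242 with siNTC in Lu139, and 332 with siTTF-1 and 348 with siNTC in NCI-H209. None of the genes in this list or those that follow was called in limma.

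The citric acid cycle and pyruvate dehydrogenase list, which feeds the chain, had medians of 0.12 in Lu139 and 0.06 in NCI-H209, with 10 of 15 genes above the limit higher in both lines and 1 lower. PDHB, the beta subunit of pyruvate dehydrogenase, was past 1.2-fold in both lines, with 1892 for siTTF-1 and 1561 for siNTC in Lu139, and 1993 for siTTF-1 and 1469 for siNTC in NCI-H209 (adjusted p in limma 0.157). Assembly factors had medians of 0.02 and -0.03, with 14 higher and 15 lower in both lines of 52. In NCI-H209 38.5% of them were higher with siTTF-1, against 51.1% of all genes. PET117, a complex IV assembly factor, had 0.27 in Lu139 and 0.33 in NCI-H209 (adjusted p in limma 0.199). Regulators of mitochondrial biogenesis had medians of 0.05 and -0.14, with 3 higher and 4 lower of 13. They ran from -0.24 to 0.63 in Lu139 and from -0.37 to 0.16 in NCI-H209. Of those above the limit in each line, 10 of 14 were higher with siTTF-1 in Lu139 and 3 of 13 in NCI-H209. GABPA, which binds the ETS word, lay at the low end of both, with -0.24 and -0.37. A link between GABPA and the subunit changes was not tested. Carriers had 0.08 and -0.02, with 4 higher and 2 lower of 10.

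**Figure D5:**
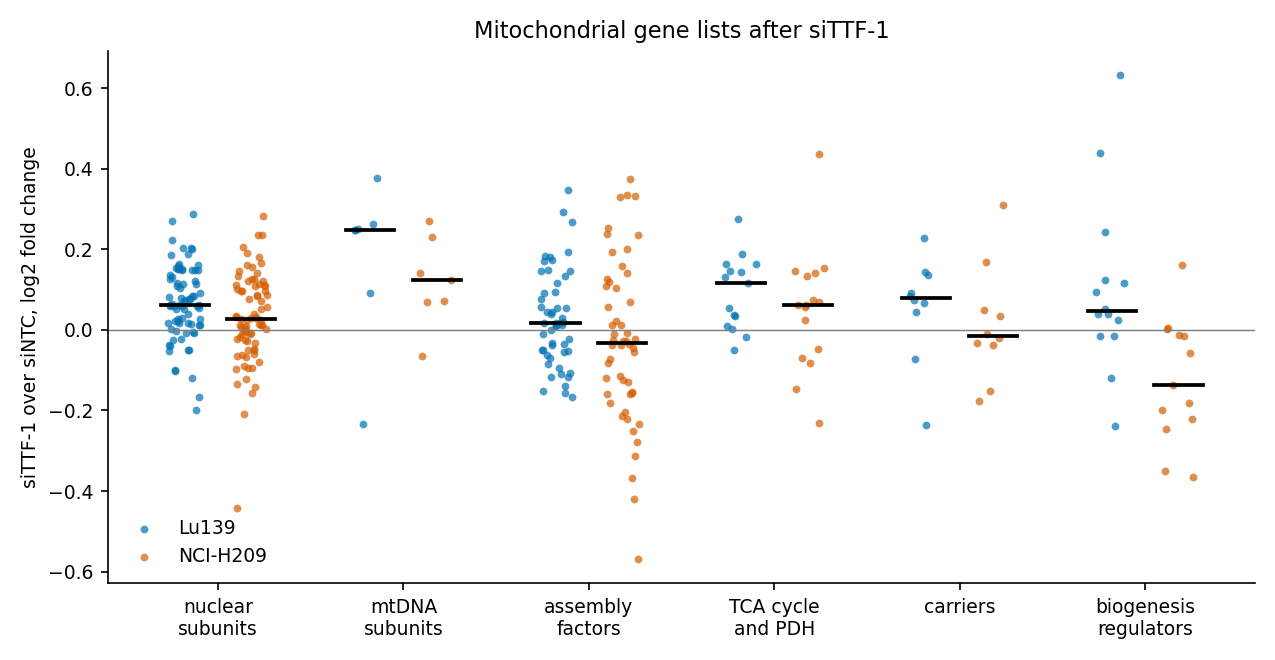
Log2 fold change of siTTF-1 over siNTC in each line for members and for the other mitochondrial lists (1 point per gene above the limit in that line), with black bars at the medians and a grey line at 0. The mitochondrially encoded subunits have the highest medians, 0.25 in Lu139 and 0.12 in NCI-H209, and the members stay close to 0.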

How the data were processed

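Each of the 4 groups was measured on 1 array. The authors deposited probe set intensity values on a linear scale. RNA was extracted with a column kit and made into biotinylated cRNA, per the labels' protocols. Per the submitters' processing notes, the tool was Affymetrix Expression Console; how probe sets were summarised and normalized, and on which build, is not given in the sources used here. Deposited intensities were taken as log2(value + 18.7), the 25th percentile of all values, so fold changes of dim genes are understated. Of 54675 probe sets, 41091 had exactly 1 symbol, and a gene took its brightest probe set. Symbols were updated through RefSeq (GRCh38.p14). Genes with a mean log2 value above 5.80 (the 40th percentile) were kept: 13996 in Lu139, 14632 in NCI-H209 and 14547 over all 4 arrays.

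Effects were fitted with limma 3.58.1 in R 4.3.3 with terms for line and siRNA, a variance trend, 1 residual and 5.91 prior degrees of freedom, and Benjamini-Hochberg adjustment over all genes tested. Tests were two-sided, and the code was tested on simulated data. Because nothing says that the arrays came from separate cultures, p-values measure only the spread between these arrays, whose number limits the precision.

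Named genes were, per complex, the 3 highest and 3 lowest mean siTTF-1 changes, the 2 largest line differences in each direction, the catalytic or core subunits and the paralog sets, and from other lists those past 1.2-fold the same way in both lines. Others named (such as promoter genes, NDUFA7, COX8A, UQCRQ, members called under all scalings and GABPA) were chosen after their values were seen. The members, lists and tests were chosen with earlier results of these data known. Alternatives changed the pseudocount, the limit, the normalization, the choice of probe set and the model.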

Additional observations from a re-analysis of the deposited data

Results flagged for a closer look

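A pair of members had siTTF-1 changes of opposite sign in the lines, each beyond 0.1 on the log2 scale. For NDUFA7, a complex I subunit of the matrix arm, the intensity was 1239 with siTTF-1 and 1391 with siNTC in Lu139, and 3316 with siTTF-1 and 3088 with siNTC in NCI-H209. The log2 fold changes were -0.17 in Lu139 and 0.10 in NCI-H209, and the difference, NCI-H209 minus Lu139, was 0.27. The other, dimmer NDUFA7 probe set above the limit was lower in both lines, at -0.07 in Lu139 and -0.32 in NCI-H209, so the opposite signs rest on 1 probe set. For COXFA4L2 the intensity was 65.6 with siTTF-1 and 71.8 with siNTC in Lu139, and 97.6 with siTTF-1 and 89.1 with siNTC in NCI-H209. The log2 fold changes were -0.10 and 0.11, and the difference, NCI-H209 minus Lu139, was 0.21. Neither difference was tested, since each rests on 1 array per group.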

How the results depend on the processing

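The count of members called for siTTF-1 stayed at 0 higher and 0 lower under each alternative. Other genes were called under some. With the limit at the 60th percentile 6 of 10998 were higher and 32 lower, and at the 80th 30 of 6518 and 82. Quantile normalization over the 4 arrays gave 17 of 14545 and 49, and that within lines 8 of 14547 and 33. No replicate block (no line term) also gave 0 calls, and the labels give no replicate numbers, so the pairing is by line. Leaving out a line leaves no residual degrees of freedom and was not fitted. The levels between lines depended on the scaling. The count called higher in Lu139 was 6 of 77 on the deposited scale, against 18.7% of all genes. It was 24 after quantile normalization over the 4 arrays (36.7% of all genes) and 33 after centring (47.4%). Over probe sets it was 15 of 139, against 19.1% of all probe sets. The count called lower, 52 (51.7% of all), was 32 (32.8%), 28 (28.1%) and 88 (50.7%). The members' median line difference, -0.41, was -0.0639 after quantile normalization, 0.0693 after centring, -0.49 with the limit at the 60th or 80th percentile, -0.34 with the mean of probe sets and -0.46 on the siNTC arrays alone. The median over all genes, -0.28, was 0.0443 after quantile normalization and 0.20 after centring. It was -0.37 and -0.40 with the limit at the 60th and 80th percentile, -0.27 with the mean of probe sets and -0.31 on the siNTC arrays. The members' median lay below it in each case. Centring also moved the members' NCI-H209 median siTTF-1 change from 0.0282 to 0.0798, and that of all genes from 0.0084 to 0.0578. Members past 1.2-fold higher in NCI-H209, 1 as reported, were 2 after quantile normalization, 3 after centring and 5 over probe sets. Those lower were 6 over probe sets. Over all genes the counts higher were 1546 of 14327 and 1927 of 13629. Over all 27800 probe sets they were 2782 higher and 4156 lower. In Lu139 the count higher was 1 with double the pseudocount, limits at the 60th and 80th percentile or either quantile normalization, and 6 over probe sets, where 1 was lower. Members lower in both lines were 6 of 76 after centring, against 22.6% of all genes. Over probe sets 22 of 131 were lower in both, against 29% of all, and 70 higher, against 35.3%. For the 71 members named or called between lines, 726 of 808 alternative line differences kept direction and side of the threshold, 28 lost the call, 7 gained it and 47 reversed. After quantile normalization over the 4 arrays the reversed ones were NDUFA12 0.012, NDUFA9 0.37, NDUFB7 0.0731, NDUFS3 0.40, NDUFS7 0.13, NDUFV2 0.21, UQCR11 0.33, UQCRC2 0.0152, UQCRQ 0.27, COX4I2 0.12, COX5A 0.0493, COX6B2 0.18, COX7C 0.25, ATP5F1A 0.0675, ATP5F1B 0.21, ATP5F1C 0.0212, ATP5MC2 0.22, ATP5PD 0.24 and ATP5PF 0.10. After centring they were NDUFA12 0.0693, NDUFA9 0.40, NDUFB7 0.10, NDUFB9 0.0769, NDUFS3 0.43, NDUFS7 0.15, NDUFV2 0.24, UQCR11 0.38, UQCRC2 0.0646, UQCRQ 0.36, COX4I2 0.37, COX5A 0.18, COX6A1 0.17, COX6B2 0.46, COX6C 0.20, COX7C 0.44, COXFA4L2 0.12, ATP5F1A 0.30, ATP5F1B 0.43, ATP5F1C 0.0885, ATP5MC2 0.28, ATP5MF 0.31, ATP5MG 0.18, ATP5PD 0.34 and ATP5PF 0.17. With the mean of all probe sets they were SDHD 0.0455, COX7C 0.11 and ATP5PD 0.15. For 54 named members, 595 of 611 alternative mean siTTF-1 changes kept direction, none was called, and 16 reversed, each from a mean between -0.0418 (ATP5PD) and 0.0509 (NDUFS7). After centring these were NDUFA5 0.0149, NDUFA7 0.0036, UQCR10 0.0013, COXFA4 0.0197, ATP5F1A 0.0069, ATP5MC2 0.0221, ATP5ME 0.0188 and ATP5MJ 0.0158, with the mean of all probe sets NDUFS7 -0.0025, ATP5MJ 0.0342 and ATP5PD 0.0205, after quantile normalization over the 4 arrays NDUFA11 -0.0072, UQCR11 -0.0022 and COXFA4L2 -0.0092, and after quantile normalization within lines NDUFA11 -0.006 and COXFA4L2 -0.0004. The cause was not tested. COX7A1, COX7B2 and ATP5MF gave the dimmest signals, near or under the limit.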
